A study of Mus musculus with 9 samples.

Results

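The colony-stimulating factors are the growth factors of the granulocyte and macrophage lineages, and their transcripts were followed here together with those of their receptors in neutrophils of 3 tissues. The members were taken by gene symbol from the deposited table and were 8 of its 24532 genes: the ligands Csf1, Csf2 and Csf3 and the receptor genes Csf3r, Csf1r, Csf2ra, Csf2rb and Csf2rb2. Neutrophils of the lung, the blood and the bone marrow of wild-type C57BL/6 mice had been sorted by flow cytometry (a FACS Aria III instrument), and their polyadenylated RNA was sequenced. Each tissue had 3 biological replicates, numbered 1 to 3, which gave 9 libraries. The mice of all 3 groups were untreated as far as the labels say. The sources used here do not give their age or sex, the surface markers and gates of the sort, or how the lung was dispersed.

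As background, each ligand acts through a receptor of its own on the cell surface. G-CSF, the product of Csf3, drives the making of neutrophils and their release from the marrow through the receptor encoded by Csf3r. M-CSF, the product of Csf1, keeps monocytes and macrophages alive through the receptor tyrosine kinase encoded by Csf1r. GM-CSF, the product of Csf2, binds the alpha chain encoded by Csf2ra, and the beta common chain encoded by Csf2rb carries its signal, as it does for interleukin 3 and interleukin 5. Mice carry a second beta chain gene, Csf2rb2, whose product serves interleukin 3 alone. Neutrophils are known for Csf3r and for the GM-CSF receptor chains, and JAK kinases, STAT factors and SOCS inhibitors act below them.

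Library totals ran from 42045548 reads in blood replicate 3 up to 56796219 reads in bone marrow replicate 2, and 13510 genes passed the filter on low counts and were tested. Levels are given in CPM, reads relative to the size of the library with TMM factors applied, as mean ± SD over n = 3 libraries a tissue. The labels do not say whether replicates came from separate mice, so p-values measure the spread between these libraries. In sorted bulk RNA, fewer cells of a type and less RNA per cell cannot be told apart. All 8 neutrophil markers listed had at least 10 reads in every library, and their summed level was 14784 to 25743 CPM in lung, 17142 to 25385 CPM in blood and 82369 to 121129 CPM in bone marrow. Lung replicate 3 stood apart from the other lung libraries on the first principal component, at 24.3 against 155 and 131. Its summed fibroblast, lung epithelium and B cell markers were also the lowest of the lung, at 89.0, 59.99 and 32.6 CPM, against 1482, 857 and 360 CPM in replicate 1 and 1269, 263 and 305 CPM in replicate 2. The B cell markers were lowest in replicate 3 of the other tissues too. They stood at 293, 278 and 47.5 CPM in blood replicates 1, 2 and 3, and at 93.2, 53.2 and 22.6 CPM in bone marrow. In bone marrow the fibroblast and lung epithelium markers were instead highest in replicate 3, at 154 and 67.5 CPM. Where leaving out lung replicate 3 changed the call or sign of a member, that value is given beside it.

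Between blood and bone marrow, Csf1, Csf3r and Csf1r were higher in blood and no member was lower, where a call means an adjusted p (Benjamini-Hochberg) under 0.05 in the quasi-likelihood test of edgeR. These were 3 of the 6 members with reads in all 9 libraries, where 21.4% of all tested genes passed, 8.34% higher and 13.1% lower. Between lung and blood, Csf2rb and Csf2rb2 were 2 of those 6 that passed, both higher in lung, beside 28.9% of all tested genes (13.2% higher and 15.7% lower). Csf3 passed there as well, but it had cleared the filter on low counts only through its reads in lung, so nothing is read from its call. Between lung and bone marrow, Csf1, Csf2rb and Csf2rb2 were 3 of the 6, all higher in lung, with Csf3 again in addition, beside 38.2% of all tested genes (15.6% higher and 22.6% lower). With the replicate number as a block, Csf3r and Csf1r passed too in lung against blood, both lower in lung (edgeR adjusted p = 0.0195 and 0.0128). Csf3r then passed in lung against bone marrow as well, higher in lung. Csf2 stayed under the filter and was not tested. With 6 members, nothing is read from how these shares compare, and the results below are which members moved and by how much. In blood against bone marrow Csf3, at 0 and at most 10 reads a library, did not pass (edgeR adjusted p = 0.0988).

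The replicates of the tissues compared did not overlap in 3 of the 6 members (Csf1, Csf3r and Csf1r) in blood against bone marrow, where 45.4% of all tested genes did not overlap. The count was 4 of 6 in lung against blood (Csf2rb and Csf2rb2 higher, Csf3r and Csf1r lower in lung), beside 41.6% of all genes, and 3 of 6 in lung against bone marrow, beside 49.0%. These overlaps were read in TMM-scaled CPM. In the deposited FPKM, reads over transcript length without TMM factors, lung also lay above bone marrow with no overlap for Csf3r, Csf1r and Csf2ra. So did blood for Csf2rb. The share of all genes in FPKM was not counted. The 3 comparisons share their libraries in pairs, so they are not independent of each other.

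**Figure D1:**
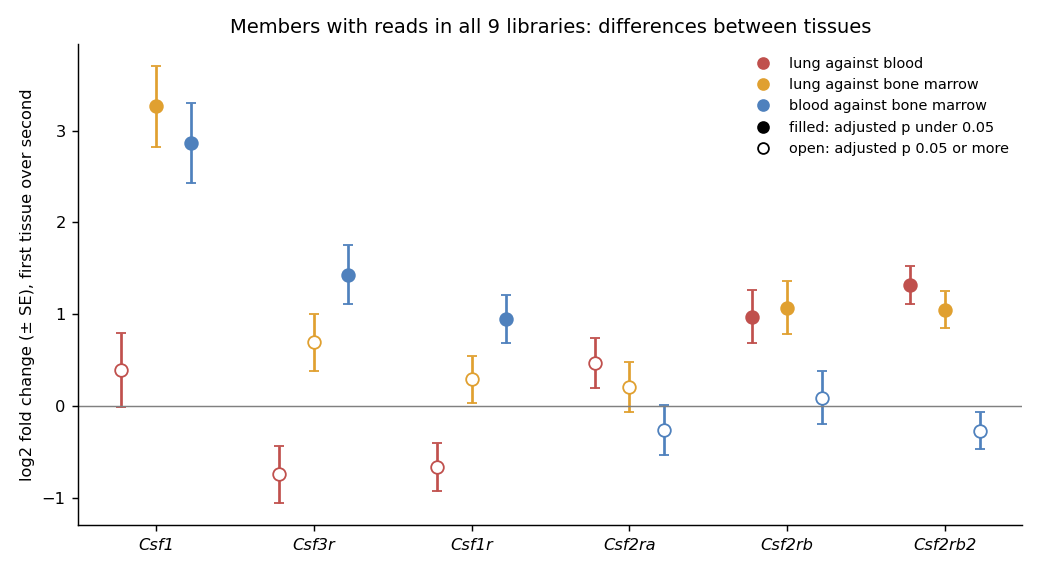
Log2 fold changes (vertical axis, estimate ± SE, first tissue over second) of the 6 members with reads in all 9 libraries, for lung against blood, lung against bone marrow and blood against bone marrow. Filled points passed an edgeR adjusted p of 0.05. Csf1 stood near 3 in both comparisons with bone marrow, Csf3r and Csf1r were above 0 in blood against bone marrow and below it in lung against blood, and Csf2rb and Csf2rb2 lay near 1 in both comparisons of lung.

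Csf1 (Entrez gene 12977), the gene of M-CSF, lies on the minus strand at chr3:107741048-107760469 of the mm10 build. Its promoter is shown because Csf1 was the ligand with the most reads and the largest change that rests on reads in every library. The 300 bases from 250 before to 50 after the transcription start (RefSeq, GRCm38.p6, minus strand, chr3:107760420-107760719) read as follows, with a match on the opposite strand to the consensus of NF-kB in capitals (10 letters, any base allowed at the fifth).
Csf1 promoter: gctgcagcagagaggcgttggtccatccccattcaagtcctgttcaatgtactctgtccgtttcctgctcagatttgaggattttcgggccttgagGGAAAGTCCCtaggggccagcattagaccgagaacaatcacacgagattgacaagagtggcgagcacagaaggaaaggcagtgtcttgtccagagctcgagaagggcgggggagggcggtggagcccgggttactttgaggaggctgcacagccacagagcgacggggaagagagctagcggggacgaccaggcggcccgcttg
The match begins 154 bases upstream of the start. Of 32851 promoters of this length, 0.411% held this motif on either strand. It is a match of letters, and no binding was measured.

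Csf1 was several times higher in lung and blood than in bone marrow. Its levels were 775, 854 and 2055 CPM in the lung libraries 1, 2 and 3, 1247, 678 and 868 CPM in blood, and at 129, 98.2 and 156 CPM in bone marrow. Lung replicate 3 was the highest of the 9 libraries, the other lung values lay within the range of blood, and every bone marrow library lay below all others. Means were 1228 ± 717 CPM in lung, 931 ± 289.8 CPM in blood and 128 ± 29.0 CPM in bone marrow. Csf1 was 9.60-fold higher in lung than in bone marrow (log2 3.26 ± 0.44, edgeR adjusted p = 0.000552) and 7.28-fold higher in blood than in bone marrow (log2 2.86 ± 0.43, edgeR adjusted p = 0.00212). The difference between lung and blood did not pass (log2 0.40 ± 0.40, edgeR adjusted p = 0.508), and without lung replicate 3 the estimate was -0.22 (edgeR adjusted p = 0.559). Both calls against bone marrow held under all 16 alternatives run for each, though without lung replicate 3 the estimate for lung against bone marrow was 2.63.

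Nearly all Csf1 reads were assigned to 1 transcript. Variant 1, of 4176 bases, held 92.9 ± 1.91% of the gene's reads in lung, 94.6 ± 0.586% in blood and 88.3 ± 3.61% in bone marrow. Variant 2 held 3.17 to 5.46% in lung, 2.86 to 4.39% in blood and 8.09 to 13.1% in bone marrow. The bone marrow share of variant 2 thus lay above both other tissues with no overlap. These shares rest on 5009 to 6109 reads a library in bone marrow and on the authors' assignment of reads between transcripts that overlap. With 3 libraries against 3, an exact permutation test cannot go below 0.1, so none was run.

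Csf3 (Entrez gene 12985, chr11:98701313-98703629, mm10), the gene of G-CSF, was read in every lung library and in no blood library. It had 934, 966 and 1377 reads in lung replicates 1, 2 and 3, no read in the blood libraries, and 10, 0 and 2 reads in bone marrow replicates 1, 2 and 3. In CPM these were 17.0, 19.3 and 34.2 in lung and at most 0.238 in bone marrow. The lung libraries were all high and the groups did not overlap, and the highest lung value was again that of replicate 3. TMM scaling multiplied the CPM of replicate 3 by 1.26 and those of replicates 1 and 2 by 0.845 and 0.878. In FPKM, without these factors, replicates 1, 2 and 3 stood at 14.3, 15.6 and 19.1, so part of the rise in replicate 3 rests on the scaling. In blood, 0 reads allow up to 3 reads a library, which came to at most 0.0680 TMM-scaled CPM, in the blood library where that limit was highest. Against that limit, Csf3 was at least 249.6-fold higher in the lowest lung library and at least 345-fold higher in the lung mean.

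Csf3 averaged 23.5 ± 9.36 CPM in lung and 0.0965 ± 0.126 CPM in bone marrow, on 12 reads in the 3 bone marrow libraries together. The fitted log2 difference was 7.93, and it was 9.83 without bone marrow replicate 1 and 7.28 without replicate 2, so its size rests on single libraries with few reads. It is given as a description, since Csf3 entered the fit through its reads in lung. The separate RSEM expected counts, deposited for lung and blood alone, gave Csf3 423, 400.0 and 582 in lung and 0 in each blood library. The table used here held 1.87 to 1.90 times the RSEM totals, so a bound given as "at least" would be nearly that much lower if each fragment had been counted more than once. Of 8203 genes without a read in any blood library, 20 had at least 1 CPM in every lung library, 3 had at least 5 CPM and Csf3 alone had at least 10 CPM. These limits were chosen after the values were seen. Among the 20, Csf3 alone was highest in lung replicate 3, and 18 were lowest there. On the RSEM expected counts Csf3 was the 1 gene at 0 in blood that reached any of these limits, so the other 19 rest on the table used here.

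Lung replicate 3, at 34.2 CPM of Csf3, had 89.0 CPM of the 5 fibroblast markers, 13.1 CPM of the 5 endothelial markers and 177 CPM of the 7 macrophage markers. Lung replicate 1, at 17.0 CPM of Csf3, had 1482, 58.6 and 237 CPM of the same lists, and replicate 2, at 19.3 CPM, had 1269, 37.9 and 286 CPM. The eosinophil markers went the other way, at 48.5 CPM in replicate 3 beside 33.8 and 44.2 CPM in replicates 1 and 2, nearly all of it Siglecf, with Epx at 0 in each. So did the macrophage marker Adgre1, at 126 CPM in replicate 3 beside 54.5 and 78.6 CPM. The neutrophil markers were highest in replicate 3 as well, at a summed 25743 CPM beside 14878 and 14784 CPM in replicates 1 and 2. All 5 fibroblast, all 5 endothelial and all 7 macrophage markers had at least 10 reads in each lung library. The part of other cells than neutrophils in the Csf3 reads was not tested.

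Csf2 (Entrez gene 12981, chr11:54247270-54249899, mm10), the gene of GM-CSF, stood at a handful of reads. It had 65, 59 and 5 reads in lung replicates 1, 2 and 3, none in the 3 blood libraries, and 5, 10 and 9 in bone marrow. Lung replicates 1 and 2 were high, and lung replicate 3 lay with the bone marrow libraries, so that lung and bone marrow overlapped. The exact Poisson 95% intervals were 50.2 to 82.8 and 44.9 to 76.1 reads in lung replicates 1 and 2, and 1.62 to 11.7 in replicate 3, which cover counting error only. The RSEM expected counts were 27, 28 and 3 in lung and 2, 1 and 0 in blood, so the blood libraries were near but not all at 0.

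Csf2 differed from Csf3 in the lung libraries that held it. It was lowest in replicate 3, where the summed fibroblast, lung epithelium, endothelium, B cell and T, NK and innate lymphoid cell markers were lowest too, the last at 10.6 CPM against 52.4 and 58.7 CPM in replicates 1 and 2. Their part in the Csf2 reads was not tested. Without the filter on low counts, the same edgeR fit gave Csf2 an adjusted p of 0.00948 in lung against blood, 0.168 in lung against bone marrow and 0.0397 in blood against bone marrow. Nothing is read from those values, since Csf2 is under the filter and had 0 reads in blood, where the RSEM counts were not all 0. The neighbour of Csf2, Il3, the interleukin 3 gene 15.2 kb away, had 0 reads in all 9 libraries.

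**Figure D2:**
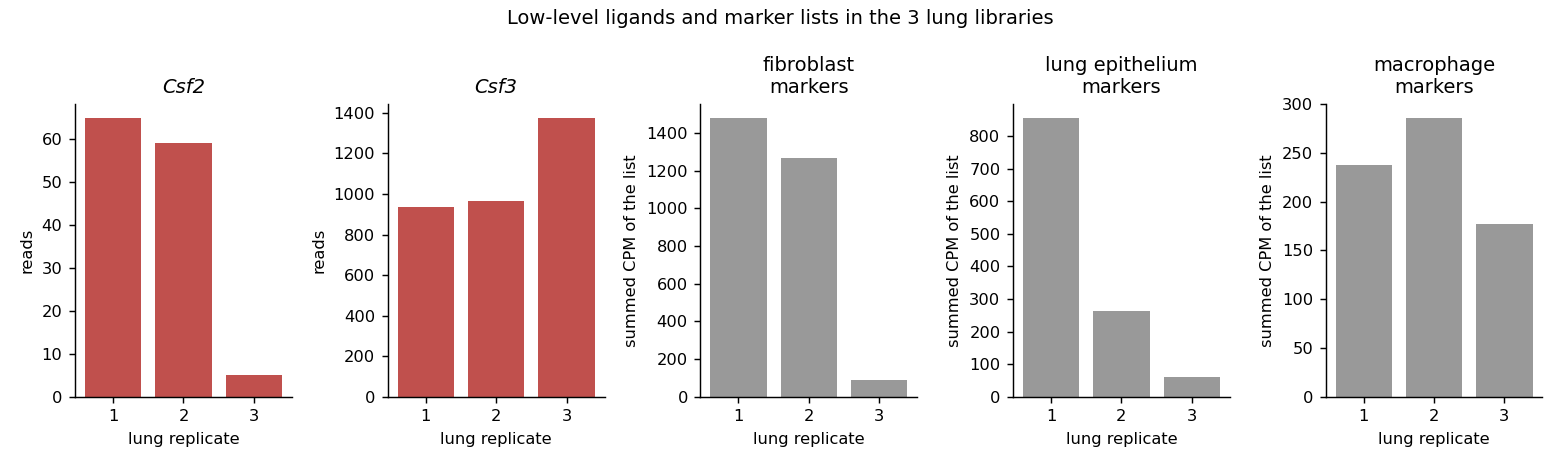
Reads of Csf2 and of Csf3, and the summed CPM of the fibroblast, lung epithelium and macrophage marker lists, in lung replicates 1, 2 and 3 (bars from 0, 1 library each, no error bar). Csf2 stood at 5 reads in replicate 3 beside 65 and 59, and the fibroblast list at 89.0 CPM beside 1482 and 1269, while Csf3 was highest in replicate 3 at 1377 reads.

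Csf3r (Entrez gene 12986, plus strand, chr4:126024659-126044975, mm10), the gene of the G-CSF receptor, was the member with the highest level per length. Its promoter is shown since the receptor differed most of all receptors between blood and bone marrow (RefSeq, GRCm38.p6, plus strand, chr4:126024409-126024708). Capitals mark a match to the PU.1 motif GAGGAAG, which begins 86 bases upstream of the start.
Csf3r promoter: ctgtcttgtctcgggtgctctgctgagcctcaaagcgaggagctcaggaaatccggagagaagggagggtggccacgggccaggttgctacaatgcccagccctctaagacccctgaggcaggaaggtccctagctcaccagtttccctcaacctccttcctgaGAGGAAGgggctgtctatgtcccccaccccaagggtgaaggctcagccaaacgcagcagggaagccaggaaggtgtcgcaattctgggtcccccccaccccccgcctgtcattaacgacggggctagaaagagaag
Of 32851 promoters, 13.6% held this motif on either strand. Promoters were matched for 5 of the 8 members: Csf1, Csf2, Csf3r, Csf2ra and Csf2rb2. The windows of Csf2ra and Csf2rb2 each held the PU.1 letters 2 times, overlapping each other in Csf2ra, and that of Csf2 held the C/EBP letters TTGCNNAA, found in 10.8% of all promoters. None of the 5 windows held the AP-1 letters TGANTCA or the TATA letters TATAAA on either strand, which 7.81% and 13.6% of all promoters held.

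Csf3r was highest in blood. It stood at 5210, 7223 and 10841 CPM in lung, at 11617, 11325 and 15905 CPM in blood, and at 4394, 4599 and 5388 CPM in bone marrow. Every blood library lay above every lung and bone marrow library, and the lowest lung library lay within the range of bone marrow. In FPKM lung did not overlap bone marrow, at 1545 to 2131 against 1034 to 1050. Means were 7758 ± 2854 CPM in lung, 12949 ± 2564 CPM in blood and 4794 ± 525 CPM in bone marrow. Csf3r was 2.70-fold higher in blood than in bone marrow (log2 1.43 ± 0.32, edgeR adjusted p = 0.0129). This call was lost without bone marrow replicate 1 or 2 (edgeR adjusted p = 0.0692 and 0.0753) and without blood replicate 1, 2 or 3 (0.0533, 0.0563 and 0.0849), with estimates of 1.31 to 1.64.

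In lung against blood, Csf3r had a log2 fold change of -0.74 ± 0.31 that did not pass (edgeR adjusted p = 0.111), although no lung library reached the blood range. With the replicate number as a block the estimate was -0.78 (edgeR adjusted p = 0.0195), and without lung replicate 3 it was -1.09 (edgeR adjusted p = 0.0142). In lung against bone marrow the log2 fold change was 0.69 ± 0.31 (edgeR adjusted p = 0.110). There the block gave 0.64 (edgeR adjusted p = 0.0310), DESeq2 gave 0.86 (adjusted p = 0.0260), upper-quartile scaling in edgeR gave 0.99 (adjusted p = 0.0149), and leaving out lung replicate 1 gave 0.92 (edgeR adjusted p = 0.0497). Whether Csf3r passed in either comparison of lung thus depended on the fit.

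The Csf3r reads were spread over 3 RefSeq transcripts in like proportions. Variant 1, of 3907 bases, held 66.2 ± 10.4% of the reads in lung, 56.5 ± 7.08% in blood and 61.4 ± 4.06% in bone marrow. Variant 3, which RefSeq lists as non-coding, held 23.2 ± 9.40% in lung, 32.1 ± 3.08% in blood and 25.3 ± 2.82% in bone marrow. Variant 2 held the remaining 10.6 ± 1.28% in lung, 11.47 ± 4.02% in blood and 13.2 ± 2.16% in bone marrow. For each variant lung overlapped both other tissues, while variant 3 took 29.1 to 35.2% in blood and 22.6 to 28.2% in bone marrow, which did not overlap. How reads were divided among these variants is the authors' estimate, and no test was run on the shares.

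**Figure D3:**
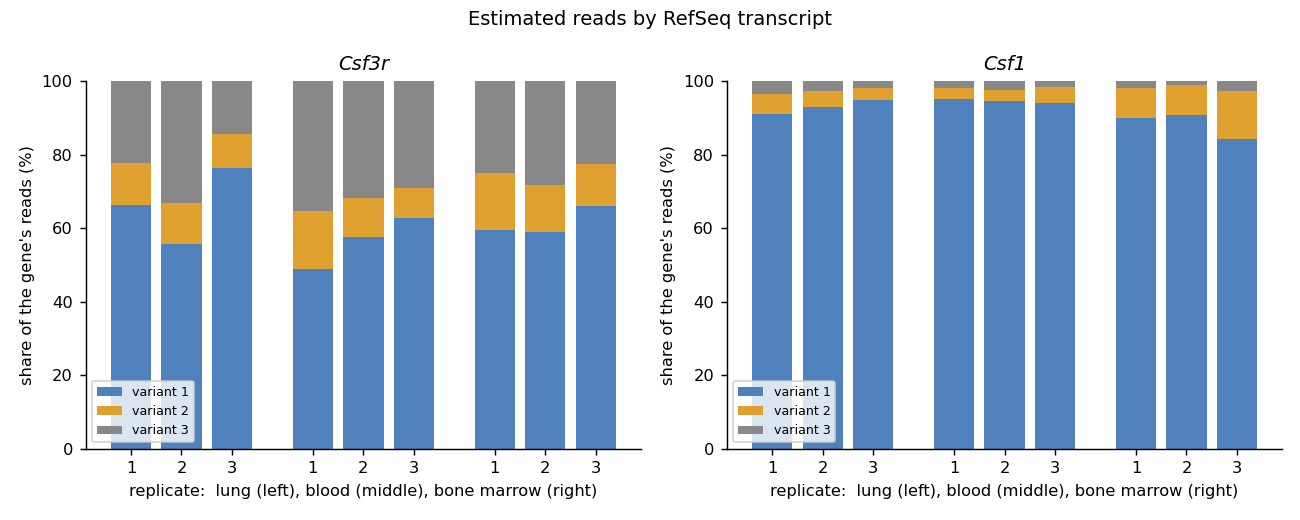
Share of the gene's estimated reads (vertical axis, %) assigned to each RefSeq transcript variant of Csf3r (left) and Csf1 (right), 1 bar per library, with lung, blood and bone marrow from left to right. Csf3r kept variant 1 as the main transcript in each tissue (mean 66.2, 56.5 and 61.4%), and Csf1 variant 2 took 8.09 to 13.1% in bone marrow, above the other tissues.

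Csf1r (Entrez gene 12978), the gene of the M-CSF receptor, followed the order of Csf3r at a far lower level. It stood at 242, 307 and 475 CPM in lung, at 505, 501 and 609 CPM in blood, and at 240.0, 266 and 329 CPM in bone marrow. Blood was above the other tissues in every library, and lung overlapped bone marrow. In FPKM lung and bone marrow did not overlap, at 71.6 to 93.4 against 56.3 to 64.2. Means were 341 ± 120.1 CPM in lung, 538 ± 61.1 CPM in blood and 279 ± 45.8 CPM in bone marrow. Csf1r was 1.93-fold higher in blood than in bone marrow (log2 0.95 ± 0.26, edgeR adjusted p = 0.0308). This call was lost without bone marrow replicate 1, 2 or 3 (edgeR adjusted p = 0.129, 0.132 and 0.0629), without blood replicate 1, 2 or 3 (0.102, 0.104 and 0.151), with another scaling, DESeq2's size factors in edgeR (0.0599), and without the filter on low counts (0.0616).

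In lung against blood, Csf1r had a log2 fold change of -0.66 ± 0.26 (edgeR adjusted p = 0.0886). With the replicate block it was -0.71 (edgeR adjusted p = 0.0128), and without lung replicate 3 it was -1.005 (edgeR adjusted p = 0.00735). In lung against bone marrow it was 0.29 ± 0.26 (edgeR adjusted p = 0.397), and it passed with upper-quartile scaling alone (0.59, edgeR adjusted p = 0.0454). Without lung replicate 3 that estimate was -0.062.

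Csf1r is also a defining gene of monocytes and macrophages, so the levels of their other markers stand beside it. The 6 monocyte markers summed to 70.0 to 113 CPM in lung, 83.9 to 224 CPM in blood and 592 to 869 CPM in bone marrow, and all 6 had at least 10 reads in every library. The bone marrow sum was mostly Ly6c2, at 544 to 861 CPM. The other 5 monocyte markers summed to 70.9, 71.3 and 20.8 CPM in lung, 148, 164 and 34.7 CPM in blood, and 48.1, 20.4 and 8.16 CPM in bone marrow. The lists were planned for use as a whole, so this sum without Ly6c2 is an addition. Blood averaged highest in it, as in Csf1r, but the tissues overlapped, with blood replicate 3 below lung replicates 1 and 2. Within each tissue this sum was lowest in replicate 3, where Csf1r was highest. The 7 macrophage markers summed to 177 to 286 CPM in lung, 95.8 to 114 CPM in blood and 48.7 to 67.6 CPM in bone marrow, with Marco at 0 in bone marrow replicate 1 and Mertk at 0 in blood replicate 3. Within blood, Csf1r was highest in replicate 3, where the monocyte sum was lowest and the macrophage sum highest. That macrophage sum was nearly all Adgre1, at 100.1, 91.5 and 112 CPM in blood replicates 1, 2 and 3. Mrc1, C1qb, C1qc and Mertk were lowest in blood replicate 3, and Marco was highest there. Within lung, Csf1r was highest in replicate 3, where both sums were lowest but Adgre1 was highest, at 126 CPM. The part of these cells in the Csf1r level was not tested.

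Csf2ra (Entrez gene 12982, minus strand, chr19:61224402-61228418, mm10), the gene of the GM-CSF receptor alpha chain, held about the same level in all tissues. It stood at 862, 1081 and 1719 CPM in lung, at 915, 728 and 992 CPM in blood, and at 1028, 958 and 1169 CPM in bone marrow. All 3 ranges overlapped, with lung replicate 3 the highest of the 9. In FPKM lung lay above bone marrow, at 536 to 709 against 454 to 505. Means were 1221 ± 445 CPM in lung, 878 ± 136 CPM in blood and 1052 ± 108 CPM in bone marrow. Its log2 fold changes were 0.47 ± 0.27 in lung against blood, 0.21 ± 0.27 in lung against bone marrow and -0.26 ± 0.27 in blood against bone marrow (edgeR adjusted p = 0.234, 0.561 and 0.556). No alternative made it pass in any comparison, and without lung replicate 3 the estimate in lung against bone marrow was -0.15.

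Csf2rb (Entrez gene 12983, plus strand, chr15:78325990-78351001, mm10) and Csf2rb2 (Entrez gene 12984, minus strand, chr15:78282508-78305721, mm10), the beta chain genes, lie 20.3 kb apart and are near copies. Their coding sequences, of 2688 and 2634 bases in GENCODE, were identical at 95.2% of aligned bases. Of the 100-base windows of the transcripts, 7.16% of those of Csf2rb were found unchanged in Csf2rb2, and 7.20% of those of Csf2rb2 in Csf2rb. Their least alike gap-free stretch of 60 coding bases, coding bases 304 to 363 of Csf2rb and 307 to 366 of Csf2rb2, is shown to let a reader see how much separates their reads, with the differing bases in capitals.
Csf2rb: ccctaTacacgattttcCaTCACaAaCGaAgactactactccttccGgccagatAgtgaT
Csf2rb2: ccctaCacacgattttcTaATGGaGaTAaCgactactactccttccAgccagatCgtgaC
In this stretch 47 of 60 bases were the same, and elsewhere a run of 242 bases was identical in both. The sources used here do not say how reads that fit both genes were shared out, so each gene's level is uncertain to that extent.

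Both beta chain genes were higher in lung than in the other tissues. Csf2rb stood at 974, 1050.4 and 1898 CPM in lung, at 588, 586 and 818 CPM in blood, and at 575, 609 and 681 CPM in bone marrow. Csf2rb2 stood at 118, 104 and 178 CPM in lung, at 50.5, 50.6 and 59.1 CPM in blood, and at 58.6, 64.1 and 70.1 CPM in bone marrow. For both genes every lung library lay above all others, replicate 3 was the highest, and blood and bone marrow overlapped. In FPKM blood lay above bone marrow for Csf2rb, at 129 to 173 against 108 to 112, while Csf2rb2 still overlapped.

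Csf2rb2 was 2.49-fold higher in lung than in blood (log2 1.32 ± 0.20, edgeR adjusted p = 0.00222) and 2.07-fold higher in lung than in bone marrow (log2 1.05 ± 0.20, edgeR adjusted p = 0.00375). These calls held under every alternative run, with estimates of 1.01 to 1.47 and of 0.75 to 1.35. The alternatives include a fit of both genes summed as 1, in which Csf2rb held most reads. That fit gave the 1.01, and with single libraries left out Csf2rb2 itself ranged from 1.02 to 1.45 in lung against blood. Csf2rb was 1.97-fold higher in lung than in blood (log2 0.98 ± 0.29, edgeR adjusted p = 0.0315) and 2.103-fold higher in lung than in bone marrow (log2 1.07 ± 0.29, edgeR adjusted p = 0.0173). In blood against bone marrow neither passed, with log2 0.10 ± 0.28 for Csf2rb and -0.27 ± 0.20 for Csf2rb2 (edgeR adjusted p = 0.854 and 0.393). Summed as 1 gene, in which Csf2rb held most reads, they gave 0.066. With single libraries left out Csf2rb2 stayed below 0, at -0.35 to -0.11.

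The calls of Csf2rb were less steady than those of its copy. In lung against blood the edgeR adjusted p was 0.0588, 0.0641 and 0.0547 without bone marrow replicate 1, 2 or 3, and 0.176, 0.174 and 0.0837 without blood replicate 1, 2 or 3. It was also over the threshold without the filter on low counts (0.0750), with the libraries of the 2 tissues alone (0.0861) and on the RSEM expected counts (0.0609). In lung against bone marrow it was 0.0770, 0.0806 and 0.0501 without bone marrow replicate 1, 2 or 3 and 0.0542 with the libraries of those tissues alone.

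**Figure D4:**
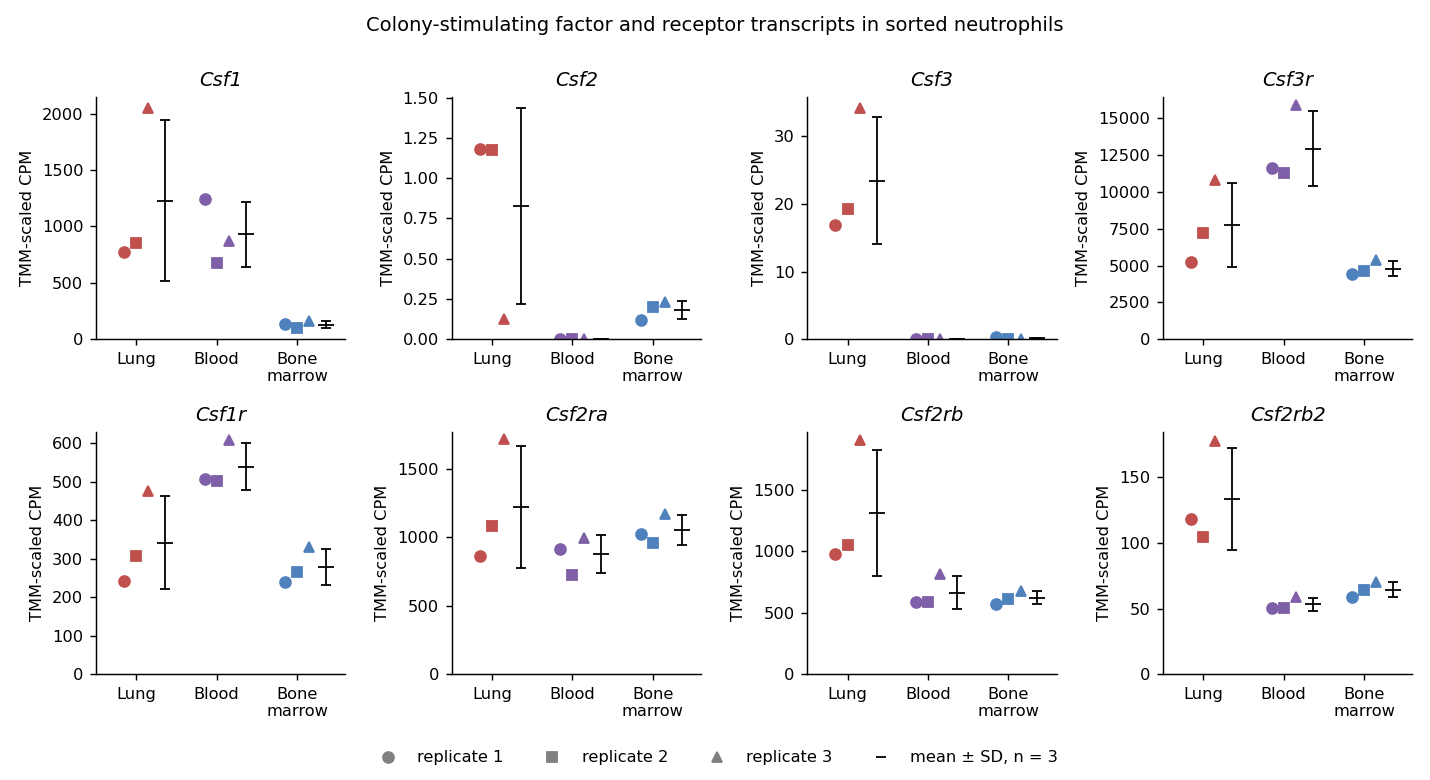
TMM-scaled CPM of each member (linear axes from 0, a scale of its own per panel) in lung, blood and bone marrow, with 1 symbol per library and the mean ± SD (n = 3) in black. Csf1 was low in bone marrow at 98.2 to 156 CPM, Csf3 was read in lung at 17.0 to 34.2 CPM and in no blood library, Csf3r was highest in blood at 11325 to 15905 CPM, and both beta chain genes were highest in lung.

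Per length, the receptors were far from equal. In the deposited FPKM, which divides reads by transcript length, Csf3r averaged 1910 ± 319 in lung, 3598 ± 499 in blood and 1041 ± 8.44 in bone marrow, which is rank 27, 11 and 53 among 24532 genes. Csf2ra followed at 630.2 ± 87.7, 512 ± 33.8 and 479 ± 25.9 FPKM in lung, blood and bone marrow (rank 106, 112 and 134). Csf2rb stood at 261 ± 37.6, 150.4 ± 22.2 and 109.8 ± 1.96 FPKM in the same tissues. Csf1r averaged 84.2 ± 11.3 FPKM in lung, 150.4 ± 12.2 FPKM in blood and 60.2 ± 3.96 FPKM in bone marrow. The ligand gene Csf1, at 280.1 ± 90.6 FPKM in lung and 245 ± 64.7 FPKM in blood, was above Csf2rb in blood and at a level its spread does not part from Csf2rb in lung, while in bone marrow it was at 26.7 ± 4.81 FPKM. Csf2rb2 had 27.5 ± 2.70, 12.3 ± 0.919 and 11.6 ± 0.342 FPKM in lung, blood and bone marrow, and Csf3 had 16.3 ± 2.50 FPKM in lung.

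Ratios within a library do not depend on how libraries are scaled. The FPKM of Csf3r was 2.88 to 3.18 times that of Csf2ra in lung, 6.07 to 7.62 times in blood and 2.05 to 2.29 times in bone marrow, with no overlap between tissues. That of Csf2ra was 2.28 to 2.65 times that of Csf2rb in lung, 3.13 to 4.01 times in blood and 4.05 to 4.61 times in bone marrow, again with no overlap. Csf3r was 21.6 to 23.5 times Csf1r in lung, 22.6 to 26.0 times in blood and 16.4 to 18.4 times in bone marrow, so lung and blood overlapped and bone marrow was lowest. Csf2rb was 8.10 to 10.4 times Csf2rb2 in lung, 11.4 to 13.7 times in blood and 9.36 to 9.62 times in bone marrow. These ratios were computed after the levels were seen, and no test was run on them.

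Replicate 3 tended to be the highest library for these genes. In lung, 7 of the 8 members were highest in replicate 3, where 39.8% of all tested genes were. In blood, 5 of the 6 members with reads were highest in replicate 3 (39.2% of all genes), and in bone marrow 7 of 8 (44.3% of all genes). Without the scaling these counts were 7 in lung, 4 in blood and 4 in bone marrow, so the count in bone marrow depends on the scaling factor of that library. The share of all genes without the scaling was not counted.

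For each tested member, the 3 genes with the most similar levels over the 9 libraries were found by Pearson's r of log2(CPM + 0.5) among 8495 genes, as a description only. For Csf3 these were Dot1l, Pik3ap1 and Nfkbie, with r = 0.998, 0.997 and 0.997. Outside lung Csf3 had at most 10 reads a library, so these r show little more than high levels in lung and even levels elsewhere. Nfkbie encodes an inhibitor of NF-kB, and it averaged 811 CPM in lung, 38.5 CPM in blood and 36.8 CPM in bone marrow. A link between it and Csf3 was not tested. For Csf1 they were Ifitm1, B9d2 and Ptges3 (0.981, 0.981 and 0.980), and for Csf3r Slc44a2, Kif23 and Tmem194 (0.996, 0.990 and 0.989). For Csf1r they were St3gal4, Trim30a and Pigl (0.986, 0.983 and 0.982), and for Csf2ra Arnt, Eif2s3y and Ergic2 (0.985, 0.961 and 0.957). For Csf2rb they included Chtf8 and Stat3 (0.991 and 0.986), and for Csf2rb2 Paf1, Tpst2 and Tbk1 (0.995, 0.994 and 0.992). The points share library and tissue, and with 3 tissues many genes follow any such order.

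The pathway around the receptors was read through 6 lists, beside the same all-gene shares as above. Those were 13.2% higher and 15.7% lower in lung against blood, and 15.6% higher and 22.6% lower in lung against bone marrow. In blood against bone marrow they were 8.34% higher and 13.1% lower. The inhibitors and STAT factors below the receptors came first. Of 16 JAK, STAT and SOCS genes, 4 were higher and 6 lower in lung than in blood, 5 higher and 6 lower in lung than in bone marrow, and 1 higher and 2 lower in blood than in bone marrow. The median log2 fold change was -0.23 in lung against blood (all genes 0.05), -0.09 in lung against bone marrow (0.06) and 0.11 in blood against bone marrow (-0.05). In lung against bone marrow the split was 5 higher and 3 lower, and the median 0.21, with upper-quartile scaling, and the median was 0.06 with the size factors of DESeq2.

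Cish and Socs3, both inhibitors of cytokine signalling that the pathway itself induces, were high in different tissues. Cish stood at 19.4, 15.4 and 10.2 CPM in lung, at 1.16, 1.16 and 0.657 CPM in blood, and at 4.29, 3.27 and 3.45 CPM in bone marrow, with no overlap between any of the tissues. It was higher in lung than in blood (log2 3.91 ± 0.35, edgeR adjusted p = 0.000242) and than in bone marrow (log2 2.03 ± 0.32, edgeR adjusted p = 0.00124), and lower in blood than in bone marrow (log2 -1.88 ± 0.32, edgeR adjusted p = 0.00413), where limma-voom did not call it (adjusted p = 0.0517). Socs3, the SOCS protein known to bind the G-CSF receptor, averaged 422 ± 76.2 CPM in lung, 784 ± 208 CPM in blood and 139.9 ± 24.7 CPM in bone marrow. It was higher than in bone marrow both in lung (log2 1.59 ± 0.25, edgeR adjusted p = 0.00123) and in blood (log2 2.49 ± 0.26, edgeR adjusted p = 0.000279), under every alternative run. Its difference of -0.89 ± 0.25 between lung and blood (edgeR adjusted p = 0.0242) was lost under 9 of 17 alternatives, with adjusted p up to 0.200.

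Stat3, the main STAT factor of G-CSF signalling, averaged 916 CPM in lung, 517 CPM in blood and 505 CPM in bone marrow, and was higher in lung in both comparisons (edgeR adjusted p = 0.0241 and 0.0163). Pias3, an inhibitor of STAT3, averaged 19.1 ± 1.77 CPM in lung, 58.3 ± 10.1 CPM in blood and 57.2 ± 9.54 CPM in bone marrow, and was lower in lung than in both (edgeR adjusted p = 0.000503 and 0.000195). Ptpn11, the gene of the phosphatase SHP2, averaged 44.6 ± 4.39 CPM in lung, 57.3 ± 5.69 CPM in blood and 84.9 ± 3.42 CPM in bone marrow, and was lower in lung than in bone marrow (log2 -0.93 ± 0.13, edgeR adjusted p = 0.000583).

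Of 18 kinases and adaptors at the receptors, 9 were lower and 1 higher in lung than in blood (15.7% and 13.2% of all genes). The median log2 fold change was -0.62 (all genes 0.05). Against bone marrow, 9 were lower and 1 higher in lung (22.6% and 15.6% of all genes), with a median of -0.70 (all genes 0.06). In blood against bone marrow 2 were higher and 1 lower, with a median of 0.04. With DESeq2's size factors in edgeR, 5 and 4 were lower in the comparisons of lung, with medians of -0.51 and -0.54, and with the replicate block 10 and 12 were lower. Cbl, a ubiquitin ligase that ends receptor signalling, averaged 71.1 ± 30.5 CPM in lung, 239 ± 19.0 CPM in blood and 286 ± 56.3 CPM in bone marrow (edgeR adjusted p = 0.00332 and 0.000950 for lung against each). Dok1, an inhibitory adaptor, averaged 6.47 ± 1.44 CPM in lung, 21.8 ± 0.554 CPM in blood and 16.2 ± 2.25 CPM in bone marrow (edgeR adjusted p = 0.000574 and 0.000881). Pik3cd, a catalytic subunit gene of PI3-kinase, averaged 330 ± 69.1 CPM in lung and 942 ± 152 CPM in blood (edgeR adjusted p = 0.00174), and its call against bone marrow was lost under 8 of 16 alternatives. Sos1, a guanine nucleotide exchange factor, averaged 16.5 ± 2.45 CPM in lung, 29.9 ± 1.70 CPM in blood and 21.8 ± 0.829 CPM in bone marrow (edgeR adjusted p = 0.00235 for lung against blood), and its call of lung against bone marrow was lost under 13 of 16 alternatives.

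Of 8 survival genes below these receptors, 6 were higher and none lower in lung than in blood (13.2% and 15.7% of all genes). The median log2 fold change was 1.67 (all genes 0.05). Against bone marrow, 5 were higher and none lower in lung (15.6% and 22.6% of all genes), with a median of 2.13 (all genes 0.06). In blood against bone marrow 3 were higher and 1 lower, with a median of 0.65. The counts were 6 and 5 or 6 in the comparisons of lung under the 5 other fits read for the lists. Bcl2a1b, of the anti-apoptotic A1 family, stood at 190.3, 165 and 305 CPM in lung, at 29.8, 20.2 and 15.9 CPM in blood, and at 5.70, 4.51 and 8.62 CPM in bone marrow, with no overlap between tissues. Its log2 fold change was 3.32 ± 0.36 in lung against blood and 5.13 ± 0.39 in lung against bone marrow (edgeR adjusted p = 0.000492 and 3.42e-05). Bcl2a1a and Bcl2a1d moved alike, and since the 3 genes are near copies whose reads could be split between them, their separate levels are uncertain. They are 3 of the 8 genes, so the counts and medians of the list rest on them in part. Pim1 is in this list and in that of the JAK, STAT and SOCS genes. Birc3, an inhibitor of apoptosis, averaged 815 ± 276 CPM in lung, 223 ± 40.6 CPM in blood and 171 ± 28.9 CPM in bone marrow (edgeR adjusted p = 0.00177 and 0.000352 for lung against each).

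**Figure D5:**
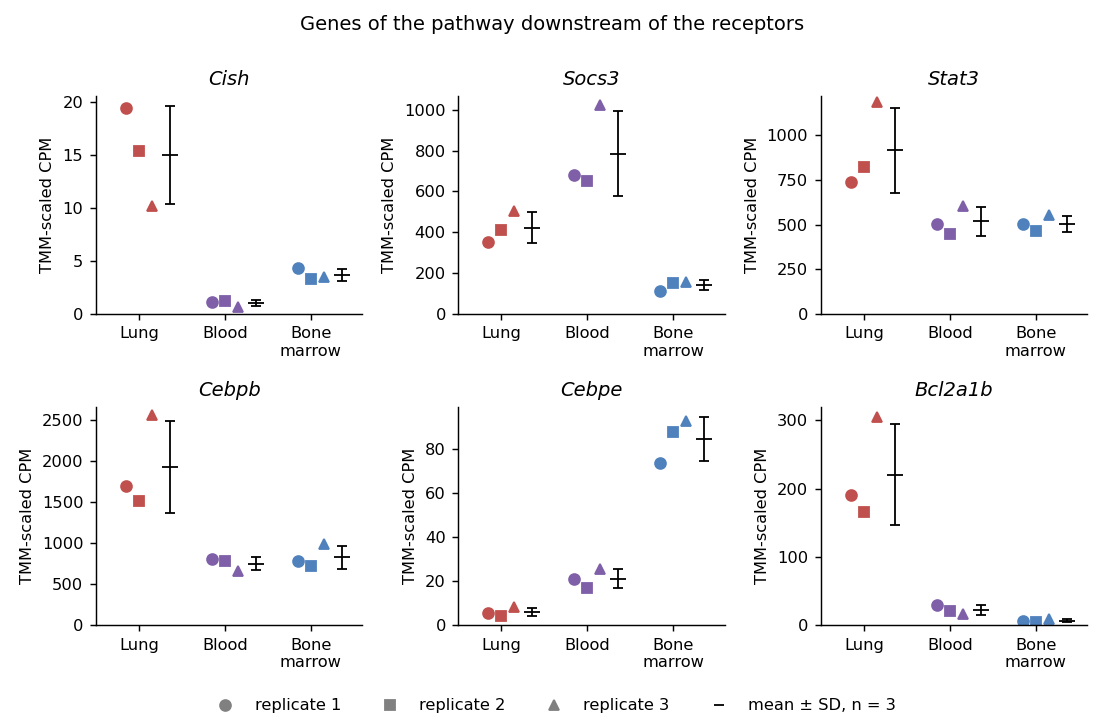
TMM-scaled CPM (linear axes from 0, a scale of its own per panel) of Cish, Socs3, Stat3, Cebpb, Cebpe and Bcl2a1b in lung, blood and bone marrow, 1 symbol per library, with the mean ± SD (n = 3) in black. Cish, Stat3, Cebpb and Bcl2a1b were highest in lung, Socs3 averaged 784 CPM in blood against 422 CPM in lung, and Cebpe was highest in bone marrow at 84.6 CPM.

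Of 10 transcription factors of the receptor genes, the counts were 1 higher and 1 lower in lung than in blood, 1 higher and 2 lower in lung than in bone marrow, and 2 lower in blood than in bone marrow. The median log2 fold changes were 0.41, 0.0068 and -0.08 in these comparisons (all genes 0.05, 0.06 and -0.05), the last 0.07 with upper-quartile scaling. With the replicate block 2 were higher in lung than in blood and 3 in lung than in bone marrow. Cebpb, the C/EBP factor of emergency granulopoiesis, averaged 1920 ± 562 CPM in lung, 748 ± 76.8 CPM in blood and 822 ± 142 CPM in bone marrow. It was higher in lung than in blood (log2 1.36 ± 0.25, edgeR adjusted p = 0.00497, and 0.0525 without blood replicate 3) and than in bone marrow (log2 1.22 ± 0.25, edgeR adjusted p = 0.00530). Cebpe, the C/EBP factor of late granulocyte maturation, averaged 5.91 ± 2.01 CPM in lung, 21.0 ± 4.33 CPM in blood and 84.6 ± 9.96 CPM in bone marrow, and each tissue differed from the others (edgeR adjusted p = 0.00140 for lung against blood, 2.83e-05 for lung against bone marrow and 0.000782 for blood against bone marrow). Myb, a factor of dividing progenitors, averaged 2.76 ± 1.5003 CPM in lung, 1.78 ± 1.45 CPM in blood and 24.5 ± 13.7 CPM in bone marrow.

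Of 9 genes that set the decay or stability of cytokine transcripts, 6 were lower and 1 higher in lung than in blood (15.7% and 13.2% of all genes). The median log2 fold change was -0.82 (all genes 0.05). With DESeq2's size factors in edgeR 3 were lower. In lung against bone marrow 1 was lower and 1 higher, with a median of -0.29 (0.03 with upper-quartile scaling), and in blood against bone marrow 2 were higher, with a median of 0.42 (6 higher with upper-quartile scaling). Zfp36l2, of the tristetraprolin family of decay factors, averaged 393 ± 49.5 CPM in lung, 1101 ± 297 CPM in blood and 1004 ± 156 CPM in bone marrow, lower in lung in both comparisons (edgeR adjusted p = 0.00284 and 0.00253). Khsrp, another decay factor of the AU-rich kind, averaged 32.8 ± 5.10 CPM in lung and 66.7 ± 8.26 CPM in blood (edgeR adjusted p = 0.00156). Rc3h1, the gene of Roquin-1, averaged 68.2 ± 16.6 CPM in lung and 125 ± 8.16 CPM in blood (edgeR adjusted p = 0.00676), a call lost under 3 of 17 alternatives. Zc3h12a, the gene of the RNase Regnase-1, was the gene that was higher, at 620.0 ± 160.2 CPM in lung, 283 ± 122 CPM in blood and 221 ± 23.4 CPM in bone marrow (edgeR adjusted p = 0.0240 and 0.00580). Its call against blood was lost under 4 of 17 alternatives, among them without blood replicate 2 or 3 or lung replicate 2 (edgeR adjusted p = 0.118, 0.134 and 0.0583).

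Among 13 related cytokines and receptors, 8 were tested, and Il3, Il5, Il34, Epo and Thpo were not. Of the 8, 4 were higher and 1 lower in lung than in blood, and 2 higher and 2 lower in lung than in bone marrow. In blood against bone marrow 1 was higher and 3 lower. The medians were 0.75, -0.53 and -0.42 in these comparisons (all genes 0.05, 0.06 and -0.05). With limma-voom 2 were higher and 0 lower in lung than in blood, and with upper-quartile scaling none was lower in lung than in bone marrow. Il3ra, the alpha chain that pairs with the beta chain genes for interleukin 3, averaged 6.60 ± 1.56 CPM in lung, 3.10 ± 0.435 CPM in blood and 13.4 ± 1.51 CPM in bone marrow, and Kit, the stem cell factor receptor of early progenitors, 5.50 ± 2.54, 0.802 ± 0.278 and 15.9 ± 0.488 CPM. Each was lower in blood than in bone marrow (edgeR adjusted p = 0.000389 and 0.000272). Flt3, a receptor of dendritic cell precursors, averaged 7.14 ± 2.39 CPM in lung, 5.38 ± 1.41 CPM in blood and 1.54 ± 0.563 CPM in bone marrow (edgeR adjusted p = 0.00247 for lung and 0.0115 for blood against bone marrow), the second call being lost without bone marrow replicate 2 or 3 (edgeR adjusted p = 0.0538 and 0.0506). Kit had 397, 336 and 104 reads in lung replicates 1, 2 and 3, and the 5 progenitor markers, of which it is one, summed to 67.2, 38.4 and 8.59 CPM there, with Mpo at 0 in replicate 3 and Elane at 0 in replicates 2 and 3. Most of that sum in replicates 1 and 2 was Cd34, at 58.3 and 30.5 CPM beside 3.10 CPM in replicate 3, while Prtn3 was highest in replicate 3, at 2.91 CPM beside 1.36 and 0.797 CPM in replicates 1 and 2. The part of other cells in these values was not tested.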

How the data were processed

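Per the file headers, the deposited table of the series gives 36780 RefSeq transcripts with their read count and their FPKM in 9 libraries. Counts are whole and not normalized: FPKM equalled count over length times 1 constant a library. Transcripts of 1 Entrez gene were added up, which gave 24532 genes. The deposited bone marrow files repeat these counts, and those of lung and blood hold RSEM expected counts (rounded here) and TPM, per the file headers. The build is mm10, and the tools named in the submitters' processing notes, without their roles, are RSEM, StringTie 2.1.3b, STAR, DESeq2 and Bowtie2. The kit is named in the labels as both standard and stranded, so whether strand was used is unknown.

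Genes were filtered with filterByExpr of edgeR 4.0.16 (minimum count 10), scaled by TMM and fitted over all 9 libraries with group means (glmQLFit, robust), with two-sided tests of each contrast and Benjamini-Hochberg adjustment (threshold 0.05). SE is the log2 fold change over the square root of F. The fit was tested on simulated data. Alternatives were DESeq2 1.42.0, limma-voom (limma 3.58.1), other scalings and filters, single libraries left out and the replicate number as a block; upper-quartile scaling was added after the data were seen. Scripts ran in Python 3.11.15 (pandas 2.3.3, numpy 2.4.6, matplotlib 3.10.9, scipy 1.17.1) and R 4.3.3. Totals of 42045548 to 56796219 reads put 3 reads at 0.0528 to 0.0714 CPM before TMM factors, and intervals cover counting error only.

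Members, gene lists and tests were chosen with earlier results of these data known. Named genes are the members, up to 4 genes a list with the lowest adjusted p and at least 5 CPM, and the 3 genes most alike in pattern to each member, of which 1 is not reported here. Deviations from tissue means of same-numbered libraries correlated at 0.127 to 0.518 between blood and lung and at 0.153 to 0.186 between bone marrow and lung. All were over 0.1, so the numbers were read as a possible pairing in the comparisons of lung. Over all tissues, libraries with unlike numbers correlated at -0.504 to 0.453, and those with the same number at 0.0489 to 0.518. These ranges overlap, so the correlations do not clearly mark pairs. The main fit, which gave the calls and counts, used no block. The fit with the block is given where it changed a member's call. Between bone marrow and blood the same-numbered correlations were 0.0489 to 0.382, with 2 of 3 over 0.1, and the numbers were not read as pairing. The labels tie no number to an animal or a day, and this reading of the numbers is a hint from the data.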

Additional observations from a re-analysis of the deposited data

How the results depend on the processing

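Estimates are log2 fold changes. Csf1r in blood against bone marrow was 0.99 (edgeR adjusted p = 0.0599) with RLE size factors and 1.05 (edgeR adjusted p = 0.0616) with no filter. Csf2rb in lung against blood was 1.01 (edgeR adjusted p = 0.0750) with no filter, 0.98 (edgeR adjusted p = 0.0861) with the libraries of those tissues alone and 0.99 (edgeR adjusted p = 0.0609) on RSEM counts, and in lung against bone marrow 1.13 (edgeR adjusted p = 0.0542) with those libraries alone. Csf3r in lung against bone marrow was 0.86 with DESeq2 (adjusted p = 0.0260) and 0.99 with upper-quartile scaling (edgeR adjusted p = 0.0149), and Csf1r 0.59 (edgeR adjusted p = 0.0454) with that scaling. With Csf2rb and Csf2rb2 summed as 1 gene, blood against bone marrow was 0.066. Apart, they were at 0.10 for Csf2rb, which held most of the summed reads, and -0.27 for Csf2rb2. Cebpb in blood against bone marrow was 0.021 with the libraries of those tissues alone and 0.027 with upper-quartile scaling, and Khsrp in lung against bone marrow 0.033 with it.

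The replicate block gave -0.78 for Csf3r and -0.71 for Csf1r in lung against blood (edgeR adjusted p = 0.0195 and 0.0128), and 0.64 for Csf3r in lung against bone marrow (edgeR adjusted p = 0.0310). In lung against blood 5 members were called with the block and 3 without it, Csf3 counted in both. Of all 13510 genes tested there, 4751 were called with the block and 3900 without it. The block changed no other member's call. Between bone marrow and blood, where the numbers were not read as pairing, it called 3990 genes against 2892. Of 18 best matches over all tissues, 13 were to the own number.

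With single libraries left out, estimates ranged in blood against bone marrow from 1.31 to 1.64 for Csf3r, 0.83 to 1.12 for Csf1r, -0.026 to 0.30 for Csf2rb, -0.11 to 0.21 for Pias3, -0.25 to 0.0079 for Cebpb and -0.055 to 0.36 for Zfp36l2. In lung against blood they ranged from -0.22 to 0.69 for Csf1, -1.09 to -0.51 for Csf3r, -1.005 to -0.46 for Csf1r and 0.57 to 1.21 for Csf2rb. In lung against bone marrow they ranged from 0.34 to 0.92 for Csf3r, -0.062 to 0.49 for Csf1r, -0.15 to 0.41 for Csf2ra and 0.66 to 1.25 for Csf2rb. Genes called ranged from 1236 to 3965 in blood against bone marrow, 1922 to 5852 in lung against blood and 3258 to 6984 in lung against bone marrow. Members called, with Csf3 counted where it passed, ranged from 1 to 4 and from 3 to 6 in the first 2 comparisons.

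Upper-quartile scaling raised the median log2 fold change of all genes by 0.15 in blood against bone marrow, 0.16 in lung against blood and 0.32 in lung against bone marrow. The share of called genes that were higher was then 52.6%, 55.9% and 59.3%, against 39.0%, 45.6% and 40.9% with TMM; RLE gave 43.1%, 56.9% and 52.0%. The cause of these changes was not tested. Depth limits Csf2 and, outside lung, Csf3.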
